A study of Oryza sativa with 6 samples.

Results

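The miR164 family was followed by small RNA sequencing in leaves of the rice CA21, a non-transgenic line from mutagenized plants that survives the herbicide glyphosate. At the third-leaf stage, seedlings received a foliar spray of 2 mg per ml glyphosate (GLY) or no spray (CK), and leaves were collected once plants of a glyphosate-sensitive rice treated alongside had died. There were 3 libraries per group, all from this germplasm, and whether these were separate plants is not in the labels, and the p-values speak to the spread among libraries, which may be technical. Members were all names with miR164 or MIR164 not followed by another digit, of any species prefix and either arm of the hairpin, which gave 11 of the 479 names and 10 of the 454 distinct sequences.

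In plants, miR164 is loaded into an Argonaute protein and guides the cleavage of mRNAs of NAC transcription factors, to which it is complementary along most of its length. In Arabidopsis these targets include CUC1 and CUC2, which set organ boundaries, NAC1, which acts in lateral root formation, and ORE1, which promotes leaf senescence. In rice, miR164 targets a small group of NAC genes that have been tied to drought responses. The strand that binds the target comes from the 5′ arm of the hairpin, while sequences of the 3′ arm are mostly its passenger strand and are not known to target NAC genes.

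The sequences of the 5′ arm show how little separates the members, and are given as deposited, 5′ to 3′ with T for U, with the seed (bases 2 to 8) in capitals.
osa-miR164a: tGGAGAAGcagggcacgtgca
osa-miR164d: tGGAGAAGcagggcacgtgct
osa-miR164e: tGGAGAAGcagggcacgtgag
gma-miR164a_R+3: tGGAGAAGcagggcacgtgcacca
osa-miR164a_L+1: cTGGAGAAgcagggcacgtgca

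Of these, 4 share the seed GGAGAAG, which no name outside the family carried. Counted from 1 at the 5′ end of osa-miR164a, osa-miR164d differs by A21T, so that the first 20 bases are the same. The member osa-miR164e differs by C20A and A21G and shares the first 19 bases. The entry gma-miR164a_R+3, named after a soybean miRNA, is the whole osa-miR164a sequence with 3 more bases at its 3′ end, and osa-miR164a_L+1 has 1 more base at its 5′ end, which moves its seed by 1 base. The maize name zma-miR164a-5p_L+1 carried the same sequence and the same values as osa-miR164a_L+1, so that its values are not repeated below, and counts are given over names and over sequences.

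The 3′ arm was represented by 5 entries with 5 different seeds, of which only the first below was abundant enough to be tested. The ending p3 marks a 3′ arm sequence without a mature miRNA name of its own, and 3 entries are shown because they recur in the values below.
osa-MIR164f-p3: tGCCCTTCttctccaccgtgc
bdi-miR164a-3p: cATGTGCCcttcttctccacc
osa-MIR164b-p3: aTGGTTCTtcatgtgcccgtc

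The first of these and bdi-miR164a-3p, named after a Brachypodium miRNA, have 17 bases in a row in common. The other entries were osa-MIR164a-p3 and osa-MIR164d-p3.

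The values are normalized counts as scaled by the authors, and 1 read was worth between 0.541 in CK 3, the deepest library with about 304753 miRNA reads, and 1.72 in GLY 3, the shallowest with about 97902. Such read equivalents are estimates from the spacing of the low values. GLY 2 stood apart from the rest of the series: over the 251 tested miRNAs it correlated at 0.557 to 0.640 with the other GLY libraries, which correlated at 0.928 with each other. Sequences of 24 nt held 35.4% of its values, against 6.99% to 15.2% in the other libraries, and sequences of 21 nt, the length of most miR164 members, held 39.1% against 62.1% to 78.4%. The families miR2118 and miR2275, which trigger phased siRNAs in reproductive organs, made up between 0.0604% and 0.0944% of the values in CK and between 0.0261% and 0.347% in GLY. The part of these library features in the results below was not tested, and results that rest on GLY 2 are given with and without it.

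In unsprayed leaves the family was dominated by osa-miR164a, a sequence that several rice hairpins share. Its values were 1575 (CK 1), 2157 (CK 2) and 1828 (CK 3) without spray against 1895 (GLY 1), 589 (GLY 2) and 1087 (GLY 3) after it. The groups overlapped, since GLY 1 lay above CK 1 and CK 3, and GLY 2 was the lowest library. The mean was 1853 ± 292 (SD, n = 3) for unsprayed and 1191 ± 659 for sprayed leaves. On the log2(value + 1) scale the difference by limma, GLY minus CK, was -0.78 ± 0.46 (SE), and it was not called (adjusted p = 0.338). In whole leaves, fewer cells with a miRNA and less of it per cell cannot be told apart. Without GLY 2 the log2 fold change was -0.36. As a share of all values of 21-nt sequences in the same library, osa-miR164a made up 1.80%, 2.25% and 1.42% of the CK libraries against 1.97%, 0.851% and 0.972% of the GLY libraries.

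Next in abundance was osa-miR164d, with CK values of 217, 389 and 287 against GLY values of 224, 55.3 and 142, in the order of the library numbers as throughout. GLY 2 was again the lowest and GLY 1 lay just above CK 1. The limma log2 difference of -1.25 ± 0.58 (SE) did not pass the threshold of 0.05 (adjusted p = 0.220), and it was -0.70 without GLY 2. The 5′-extended form osa-miR164a_L+1 had CK values of 26.9, 58.7 and 48.1 against GLY values of 20.2, 5.23 and 18.9, so that each GLY library lay below each CK library. Its log2 difference of -1.65 ± 0.68 (SE) was not called either (limma adjusted p = 0.180), and it was -1.08 without GLY 2.

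The 24-nt form gma-miR164a_R+3 showed the opposite order within GLY. Its CK values were 17.6, 20.2 and 16.2, and after the spray it was listed at 0 in GLY 1 and GLY 3 while GLY 2 held 8 read equivalents, a value of 11.95. All GLY values lay below all CK values. With all libraries it was not called, the log2 difference being -3.01 ± 1.20 (SE, limma adjusted p = 0.170). Without GLY 2 the log2 difference was -4.24. That value rests on GLY libraries listed at 0, and the sequence then reaches the filter value only in CK, so no test of it is given. Its length was that of the sequences that were more abundant in GLY 2.

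The member osa-miR164e was singled out with its result in these libraries already known, so that its values are a description. It was listed at 0 in CK 1 and CK 2 and had a value of 4.86 in CK 3, while after the spray it reached 65.1 (GLY 1), 17.9 (GLY 2) and 58.5 (GLY 3). These values correspond to 9 reads in CK 3 and to 74, 12 and 34 reads in GLY. Every GLY library lay above every CK library, and the lowest of the GLY libraries was GLY 2, as for osa-miR164a and osa-miR164d. The mean was 1.62 ± 2.81 (SD, n = 3) for CK and 47.2 ± 25.5 for GLY. In the limma fit over all miRNAs its log2 difference was 4.54 ± 1.04 (SE). It was singled out for this difference and passed the filter on low values only through the GLY libraries, so its adjusted p of 0.0421 is drawn from the values that selected it and supports nothing. The size depends on the constant added to each value, being 5.23 with 0.5 and 2.90 with 5. The adjusted p ranged from 0.00468 to 0.160 over the alternatives, being under the threshold in 8 of 17 and above it without any one of the libraries other than GLY 2.

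Each library held only 18 to 21 entries above 0 and under 5 estimated reads, so a listed 0 may hide a few reads. A value of 5 reads would have been 0.280% of osa-miR164a in CK 1 and 0.203% in CK 2, and the measured osa-miR164e in CK 3 was 0.266% of osa-miR164a. The level of CK 3 would thus have been under 5 reads in CK 1 and somewhat above it in CK 2, and a difference among the CK libraries is hardly detectable at this depth. In GLY the same ratio was 3.43%, 3.04% and 5.38%, and the lowest of these was 11.4-fold above that of CK 3.

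**Figure D1:**
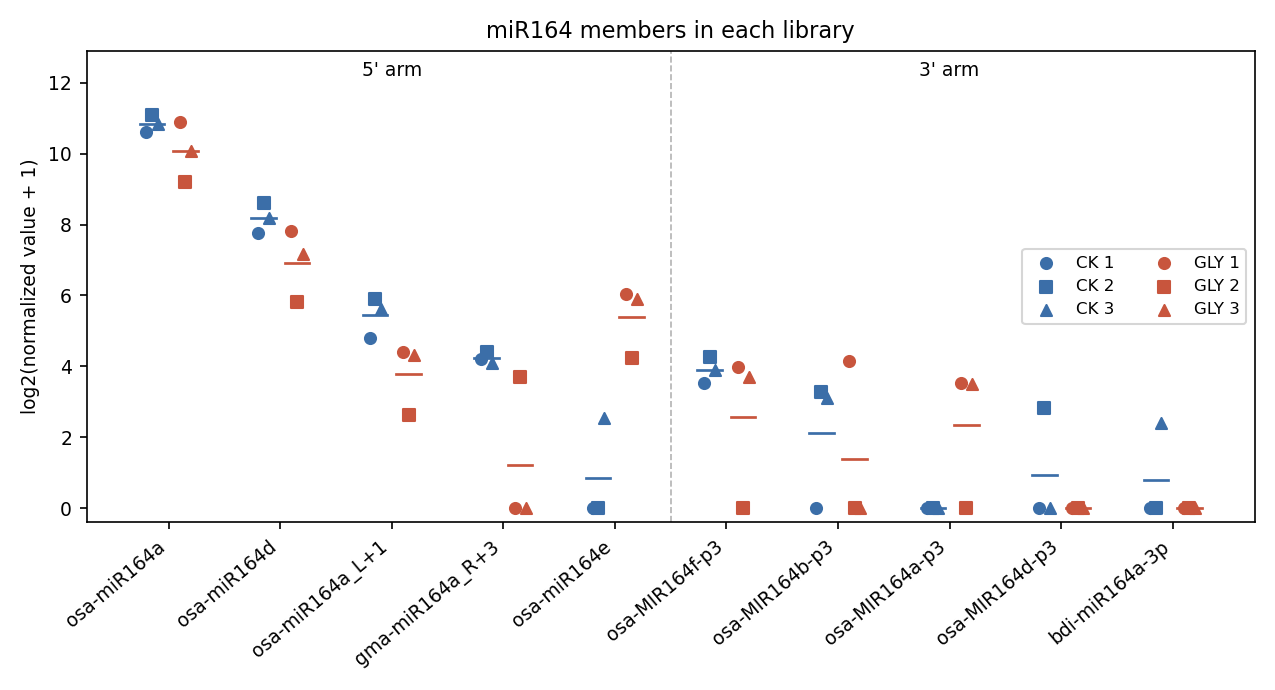
Value of each distinct miR164 sequence in each library, as log2(normalized value + 1), with 5′ arm sequences on the left of the dashed line and 3′ arm sequences on the right. Blue marks are CK, red marks are GLY, shapes give the library and short lines the group mean of the log2 values; osa-miR164e is the 5′ arm sequence whose GLY marks lie above its CK marks.

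The members were also set in proportion to each other within each library. The ratio of osa-miR164e to all other members, as log2((value + 1)/(sum + 1)), had values of -10.85, -11.38 and -8.56 for CK against -5.05, -5.13 and -4.42 for GLY, a difference of 5.40. The groups did not overlap, which follows from the values that singled out osa-miR164e, and no test is given. The difference was between 4.84 and 6.25 when a library was left out, 6.09 with 0.5 and 3.75 with 5 in place of the added 1, and 6.50 after quantile normalization. In contrast to its level, the ratio in GLY 2 lay beside that in GLY 1.

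The proportion of osa-miR164d to osa-miR164a moved in the other direction. It came to 13.8%, 18.02% and 15.7% for CK against 11.8%, 9.38% and 13.03% for GLY, without overlap, with an exact two-sided permutation p of 0.1, the smallest that 3 against 3 libraries allows. For osa-miR164a_L+1 the proportion came to 1.71%, 2.72% and 2.63% for CK against 1.07%, 0.887% and 1.74% for GLY, where GLY 3 lay just above CK 1 (exact permutation p of 0.2). For gma-miR164a_R+3 it was 0.887% to 1.12% in CK against 0% in GLY 1 and GLY 3 and 2.03% in GLY 2, with an exact permutation p of 0.8. These exact p-values are not adjusted for the number of ratios compared, since the ratios planned for adjustment included that of osa-miR164e.

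**Figure D2:**
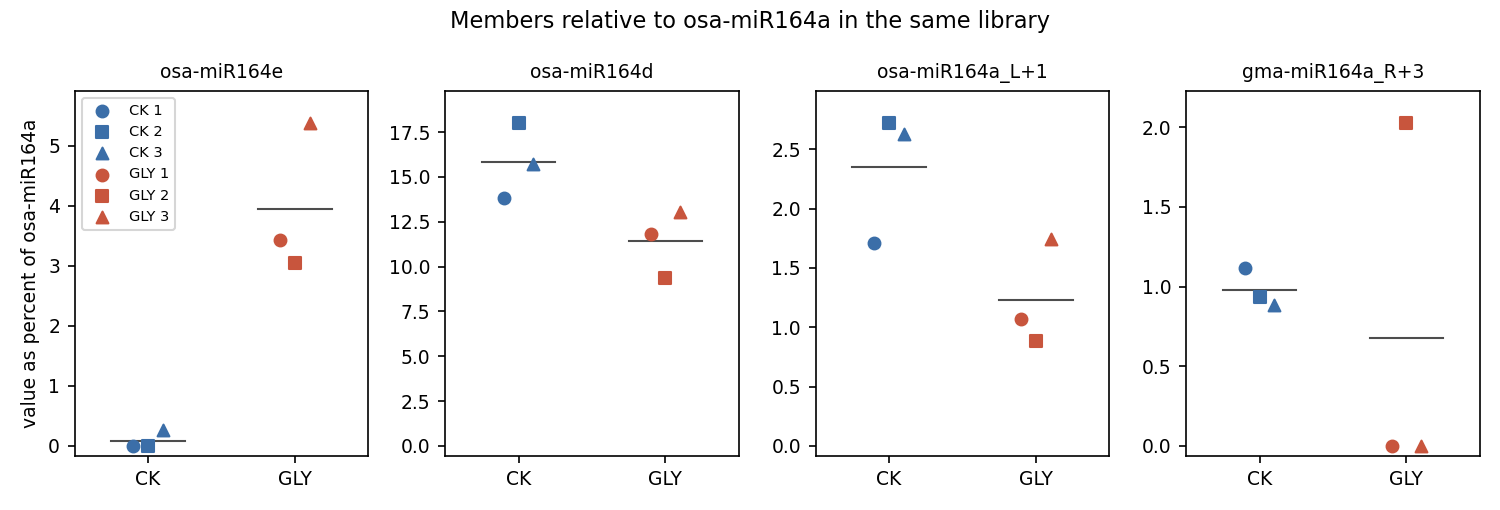
Value of 4 members as a percent of osa-miR164a in the same library (y axes differ between panels and begin just below 0), with 1 mark per library and a line at the group mean. For osa-miR164e the GLY libraries lie between 3.04% and 5.38% and the CK libraries between 0% and 0.266%, while osa-miR164d was a smaller share of osa-miR164a in every GLY library than in any CK library.

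Near-identical members can share reads, and the sources used here do not say how shared reads were divided between names. In read equivalents osa-miR164a came out whole (within 0.01) in 1 library and osa-miR164d in 2, so that their proportion is uncertain by whatever reads were divided. In contrast, osa-miR164e, gma-miR164a_R+3 and all 3′ arm entries were whole in all 6 libraries. A listed 0 counts as whole, so this says little for entries that were mostly at 0. The fractions of osa-miR164a and osa-miR164d were the same in 3 libraries, as in CK 2 with 2460.33 and 443.33 read equivalents. They differed in the other 3, with 1787.17 and 246.67 in CK 1, 394.5 and 37 in GLY 2 and 631.83 and 82.33 in GLY 3. The form osa-miR164a_L+1 was at 30.5 read equivalents in CK 1 and 3.5 in GLY 2, as was its maize name.

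The 3′ arm was scarce in every library and took up 0.572% to 1.25% of the family sum in CK and 0% to 1.88% in GLY. The most regular entry was osa-MIR164f-p3, with CK values of 10.6, 18.4 and 14.1 against GLY values of 14.9, 0 and 12.04. Its log2 difference of -1.34 ± 1.22 (SE) was not called (limma adjusted p = 0.550), and it was -0.06 without GLY 2. The entry osa-MIR164a-p3 was listed at 0 in all CK libraries and in GLY 2 and had values of 10.6 in GLY 1 and 10.3 in GLY 3. The values of osa-MIR164b-p3 were 0, 8.77 and 7.57 for CK against 16.7, 0 and 0 for GLY. Single values were found for osa-MIR164d-p3 (6.14 in CK 2) and bdi-miR164a-3p (4.32 in CK 3). All 3′ arm entries were thus listed at 0 in GLY 2. No entry of the hairpin of osa-miR164e other than osa-miR164e was among the members.

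The order of the members by mean was the same for the 2 most abundant sequences in both groups. In CK, the ranges of osa-miR164a, osa-miR164d and osa-miR164a_L+1 did not overlap with that of the next member. Those of gma-miR164a_R+3 and osa-MIR164f-p3 overlapped, although gma-miR164a_R+3 was the higher within each CK library. In CK osa-miR164e stood in place 8 of 10. In GLY it stood in place 3, behind osa-miR164d, and its range (17.9 to 65.1) overlapped that of osa-miR164d (55.3 to 224). Within each GLY library osa-miR164d was the higher, at 224, 55.3 and 142 against 65.1, 17.9 and 58.5.

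Among the 7 names tested, 1 was called higher and none (0) lower, against 7.57% called higher and 3.59% called lower of all 251 tested miRNAs, or 11.2% in either direction. At an unadjusted limma p under 0.05 there were 2, osa-miR164e and gma-miR164a_R+3, beside 68 of all tested miRNAs. Nothing is read from the count of members called, since the one called is osa-miR164e, and the 4 names that did not pass the filter on low values were 3′ arm entries. The median log2 fold change was -1.34 over the 7 names and -1.50 without osa-miR164e, beside -0.46 over all tested miRNAs. Negative values were found for 6 of the 7 names, beside 158 of all 251 tested miRNAs. Over the 6 distinct sequences, osa-miR164e among them, the median was -1.30 and 5 were negative. The medians over names count the sequence of osa-miR164a_L+1 under both of its names, which makes the -1.50 lower than it would be over sequences. Without GLY 2 the median over all tested miRNAs was -0.63, with members on both sides of it. These were osa-MIR164f-p3 (-0.06), osa-miR164a (-0.36), osa-miR164d (-0.70), osa-miR164a_L+1 (-1.08), gma-miR164a_R+3 (-4.24) and osa-miR164e (5.12). The groups did not overlap for 1 name that was higher and 3 that were lower (2 sequences), where 13.9% and 21.9% of all tested miRNAs, 35.9% together, were without overlap. GLY 2 was the lowest of the 6 libraries for 5 of the 7 names and for 4 of the 6 sequences, against 26.7% of all tested miRNAs.

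**Figure D3:**
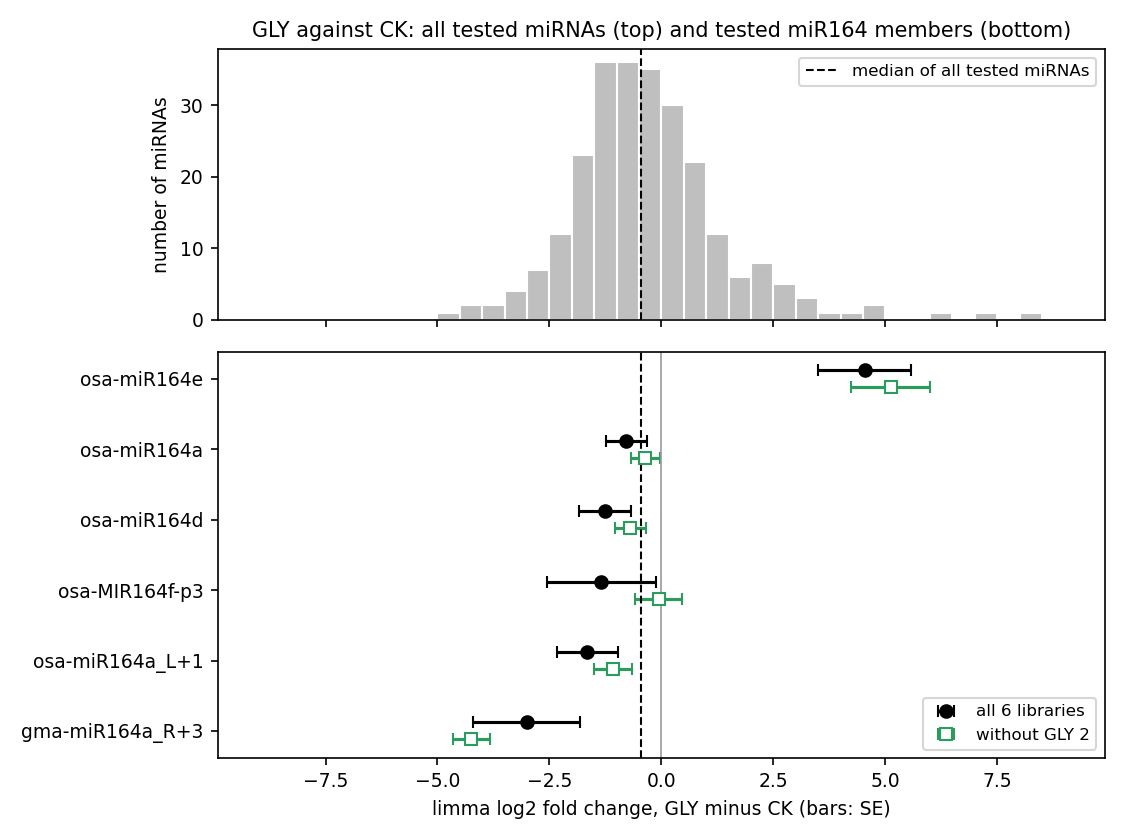
Top, number of tested miRNAs by limma log2 fold change (GLY minus CK); bottom, the 6 tested miR164 sequences with their SE, from all 6 libraries (filled circles) and without GLY 2 (open squares). The dashed line marks the median of all tested miRNAs (-0.46); osa-miR164e lies at 4.54 and the other sequences between -3.01 and -0.78 with all libraries.

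The family sum, with each sequence counted once, reached 1847, 2658 and 2211 without spray against 2247, 680 and 1329 after it. It followed osa-miR164a, which made up 81.2% to 86.7% of it in every library. The log2 difference of -0.81 ± 0.47 (SE) was not called (limma adjusted p = 0.487 over 89 tested families, of which 8.99% were called), and it was -0.36 without GLY 2. In GLY 2 the family stood in place 35 among the 139 families, against place 12 to 15 in the CK libraries, 16 in GLY 1 and 22 in GLY 3. The sum changed little without osa-miR164e, which was at most 4.40% of it, and the log2 fold change was then -0.85.

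The pattern of osa-miR164e over the libraries was compared with that of the other tested miRNAs by Pearson's r of log2(value + 1). These are descriptions over 6 libraries of 2 groups. Most alike were osa-MIR159c-p3 (r = 0.998, rho = 0.986), osa-MIR6251-p3 (r = 0.987), osa-miR408-5p_L+1R-1 (r = 0.984), osa-MIR810b-p3 (r = 0.975) and osa-miR159f_R-1 (r = 0.973), out of 234 candidate sequences. The closest, osa-MIR159c-p3, comes from a family whose mature strand targets MYB genes. Its values were 6.17, 6.14 and 16.5 for CK against 62.1, 32.9 and 50.5 for GLY, with CK 3 the highest of CK and GLY 2 the lowest of GLY, as for osa-miR164e. It was not called (limma adjusted p of 0.0661) but was called in 3 of 17 alternatives. Called higher were osa-miR408-5p_L+1R-1, osa-MIR810b-p3 and osa-miR159f_R-1, calls that were lost in 5, 7 and 8 of 17 alternatives. All were picked for likeness to osa-miR164e, itself singled out as higher in GLY, so these calls follow in part from the choice. Of all tested miRNAs, 7.57% were called higher.

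Over the same libraries osa-miR164e had an r of -0.40 with osa-miR164a and -0.49 with osa-miR164d, while osa-miR164a had an r of 0.98 with osa-miR164d and 0.92 with osa-MIR164f-p3. The part of divided reads in the likeness of osa-miR164a and osa-miR164d was not tested. The miRNAs outside the family most like osa-miR164a were osa-miR162b, which targets DCL1, the enzyme that makes miRNAs (r = 0.954), osa-MIR5794-p3 (r = 0.948) and osa-miR390-5p, which triggers siRNAs against auxin response factors (r = 0.936). Each of them was lowest in GLY 2, for example osa-miR390-5p at 285 there and between 483 and 725 in the other libraries, and none of them was called. They were picked for likeness to osa-miR164a, itself lowest in GLY 2, so the low value there follows in part from the choice.

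**Figure D4:**
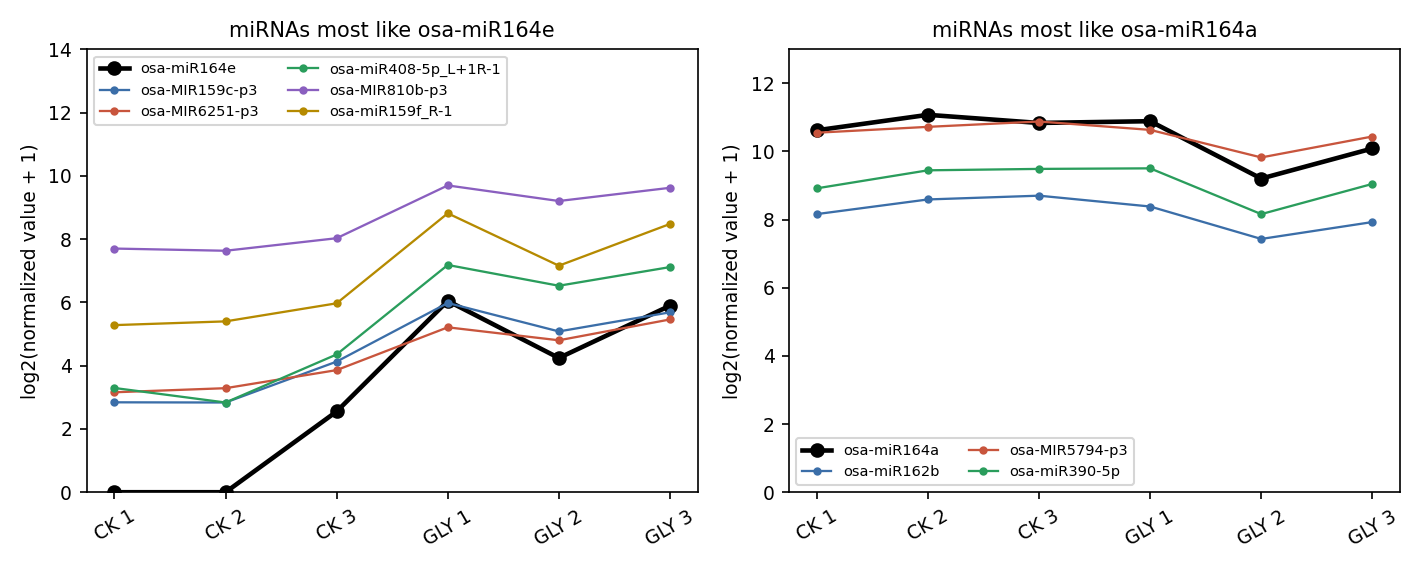
Left, osa-miR164e (black) and the 5 miRNAs with the most similar pattern; right, osa-miR164a (black) and its 3; the y axis is log2(normalized value + 1) and lines only join the values of 1 miRNA. The miRNAs like osa-miR164e are higher in every GLY library than in any CK library, and those like osa-miR164a have their lowest value in GLY 2. Both follow in part from picking them for a similar pattern.

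The members were set beside other conserved families that target transcription factors (miR156, miR159, miR160, miR166, miR167, miR169, miR171, miR172, miR319 and miR396). Of their 84 tested names, 4 were called higher and 7 lower, which is 13.1% beside the 11.2% of all tested miRNAs, and their median log2 fold change was -0.84. Without GLY 2 the number called was 47, where 125 of the 251 tested miRNAs were called. It was 0 without CK 1 or without CK 2 (2 of 251 each), 2 without CK 3 (9 of 251) and 5 without GLY 3 (14 of 251). The called names were osa-miR156f-3p, osa-miR159f_R-1, osa-MIR167f-p3 and osa-MIR171g-p3, all higher, and osa-miR160f-5p, osa-MIR167c-p3, osa-miR319a-3p.2-3p_L+1R+1 and 4 names of miR169, all lower. Of these, osa-MIR167f-p3 and osa-MIR171g-p3 reached the filter value only in GLY and osa-MIR167c-p3 only in CK, so that their calls follow in part from the filter. Of the families that act in leaf growth (miR159, miR319 and miR396), 1 of 15 tested names was called higher and 1 lower, with a median of -0.77. Of these, miR319 targets TCP genes, which in Arabidopsis promote the transcription of a miR164 gene. Its 3 tested names included osa-miR319a-3p.2-3p_L+1R+1 (log2 fold change -2.85), called lower, where 3.59% of all tested miRNAs were. Not called were osa-MIR319b-p5 (-1.85), an entry of the 5′ arm, and osa-miR319a-3p.2-3p_R+1 (-0.77). A link between these values and the miR164 members was not tested.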

How the data were processed

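Leaf small RNA of 3 CK and 3 GLY libraries was used. The authors built TruSeq libraries, read them on a HiSeq, discarded reads under 18 nt and those of other RNA types, and matched the rest to miRBase 20.0 with ACGT101-miR. Each deposited value is a signal, a normalized count per the file headers, whose scaling by the authors is not stated. Since the values are not whole counts, no count model, planned for raw counts only, was run.

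After removal of 103 exact repeats from 582 rows, the 251 miRNAs reaching a value of 10 in 3 libraries entered a limma 3.58.1 fit (R 4.3.3, trend and robust moderation) of log2(value + 1), with Benjamini-Hochberg adjustment over all of them and a threshold of 0.05. Families were summed by miRBase number, each sequence once. The value of 1 read was the largest step that left at least 75% of a library's values under 60 within 0.01 of whole reads. Ratios were compared by exact permutation over libraries. The fit was tested on simulated data.

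Every member is described. Other miRNAs named are the 5 and 3 most similar in pattern to osa-miR164e and osa-miR164a and the called names of the listed families (miR444, also listed, had 0 names). The members and lists were chosen with earlier results of these data known. Alternatives were other added constants, filters and scalings, one by the study's valid reads, a fit without trend and robust moderation, joined sequences, a replicate block and leaving out each library. Sequences are those of the deposited table, and no genome positions are given.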

Additional observations from a re-analysis of the deposited data

How the results depend on the processing

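The log2 fold change of osa-miR164e was positive in all 17 alternatives, which follows from the values that singled it out. Its adjusted p-values in this section are drawn from the same values and support nothing. The call of osa-miR164e was lost with 0.5 added (5.23, limma adjusted p of 0.0591) and with no filter on low values (4.54, adjusted p of 0.0673). It was also lost with scaling by valid reads (4.52, adjusted p of 0.0564). When a library was left out, the log2 fold change was between 4.12 and 5.39, and osa-miR164e was called only without GLY 2. With no filter more miRNAs were tested, and in the other cases the cause was not tested. The number of members called was therefore 0 with 0.5 added, with no filter and with scaling by valid reads, and 0 to 2 without 1 library, the 2 being osa-miR164e and gma-miR164a_R+3 without GLY 2, each of which then reaches the filter value in 1 group only. The family sum was not called in any alternative, with log2 fold changes of -1.22 to -0.36 without 1 library, and the ratio of osa-miR164e to the other members was between 4.84 and 6.25 without 1 library and between 3.75 (5 added) and 6.50 (quantile normalization) under the other settings. Calls among the transcription factor-targeting families were 3 with scaling by valid reads and 0 to 47 without 1 library (47 without GLY 2), against 11. Calls over all tested miRNAs were 28, against 12 with scaling by valid reads and 2 to 125 without 1 library (125 without GLY 2).

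With the replicate block, osa-miR164e was not called (4.54, adjusted p of 0.0951), 0 members and 1 name of the transcription factor-targeting families were called, and calls over all miRNAs went from 28 to 6. Deviations of same-numbered libraries correlated at -0.39, 0.094 and 0.47, and the highest correlation of any pair was that of CK 1 with GLY 2 (0.51). With 3 libraries per group, such correlations cannot decide whether the numbers pair the libraries. Alternatives with both names of a shared sequence added and without osa-miR164e were chosen after seeing the data and left the family sum uncalled. The shallowest library, GLY 3, puts 5 reads at a value of 8.60, which limits what can be said of the 3′ arm.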
